A study of Mus musculus with 9 samples.

Results

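Fibroblasts that divide must switch on a set of genes that condense the chromosomes, build the spindle, attach and check the chromosomes, and finally split the cell body. The expression of 43 such mitosis and cytokinesis genes was examined in the lung fibroblasts of aged mice with and without bleomycin injury. The members were chosen by symbol from a list of regulators of the G2 and M phases, kinetochore, spindle, and cytokinesis genes, and all 43 were found, each as 1 row, among the 43346 genes of the deposited table. All 43 passed the filter of an average of at least 25 counts, as did 16877 genes in all.

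The libraries came from lung cells of male Col1a1-GFP transgenic mice on an FVB background, in which green fluorescent protein is driven by the collagen I promoter. The aged sham group (n = 4) received saline and the aged bleo group (n = 5) a dose of bleomycin into the trachea, and the lungs were taken on day 30. The labels give an age of 72 weeks for every mouse and the series text 18 months. Cells were sorted as GFP+, CD45-, CD31-, and EpCAM-, so every library holds cells picked for collagen promoter activity, and *Col1a1* itself was higher in aged bleo (log2 fold change 2.33 ± 0.23 SE, FDR = 0.000176). The study's methods describe plotted points as independent mice or replicate cultures, the labels give no number of mice per library, and the p-values measure the spread between these libraries. Young mice were not analysed here. Total counts ranged from 49921946 to 62370512 in aged sham and from 53833507 to 68260600 in aged bleo, and no member had fewer than 8 counts in any library. Fibroblast markers were abundant in every library, led by *Col3a1* and *Col1a1*, and the 13 genes of the fibroblast list summed to between 36228 and 93340 CPM (counts scaled to library size, with TMM factors). Libraries of a group differed from each other by far more than sampling noise, so none was a duplicate.

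Most mitosis genes are silent in resting cells and are transcribed late in the cell cycle. In G0 and G1 the DREAM complex, which joins the pocket proteins p130 or p107, repressive E2F factors, and the MuvB core, holds their promoters off through a short element called the cell cycle genes homology region (CHR). Later in the cycle the MuvB core works with B-MYB and then with FOXM1, and the NF-Y factor acts through CCAAT boxes in the same promoters. In the lung, fibroblasts divide little without injury, and their expansion is a known part of the fibrotic response. Transcript levels of these genes follow how many cells of a sample are in late cycle as well as how much RNA each cell holds, and in bulk libraries fewer such cells and less RNA per cell cannot be told apart.

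Of the 43 genes, 42 rose after bleomycin injury (FDR under 0.10, change over 1.5-fold), and none fell. Over all 16877 genes tested, 12.3% were higher by the same rule and 11.5% lower. The median log2 fold change of the 43 genes was 2.65, against 0.01 over all genes tested, and the values ran from 0.85 (*Nusap1*) to 3.71 (*Bub1*). Expressed as fold changes, 42 genes rose by over 2-fold in the fit, 35 by over 4-fold, and 10 by over 8-fold, where *Nusap1* was the exception at 1.8-fold and did not pass. Counts were tested with the quasi-likelihood method of edgeR, and FDR stands for the p-value adjusted by Benjamini-Hochberg across every gene tested. The libraries themselves were less clear-cut than the calls. In 12 of the 43 genes every aged bleo library was above every aged sham library, a pattern met in 16.1% of all genes tested, and in the other 31 genes aged sham 1 was above aged bleo 2.

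**Figure D1:**
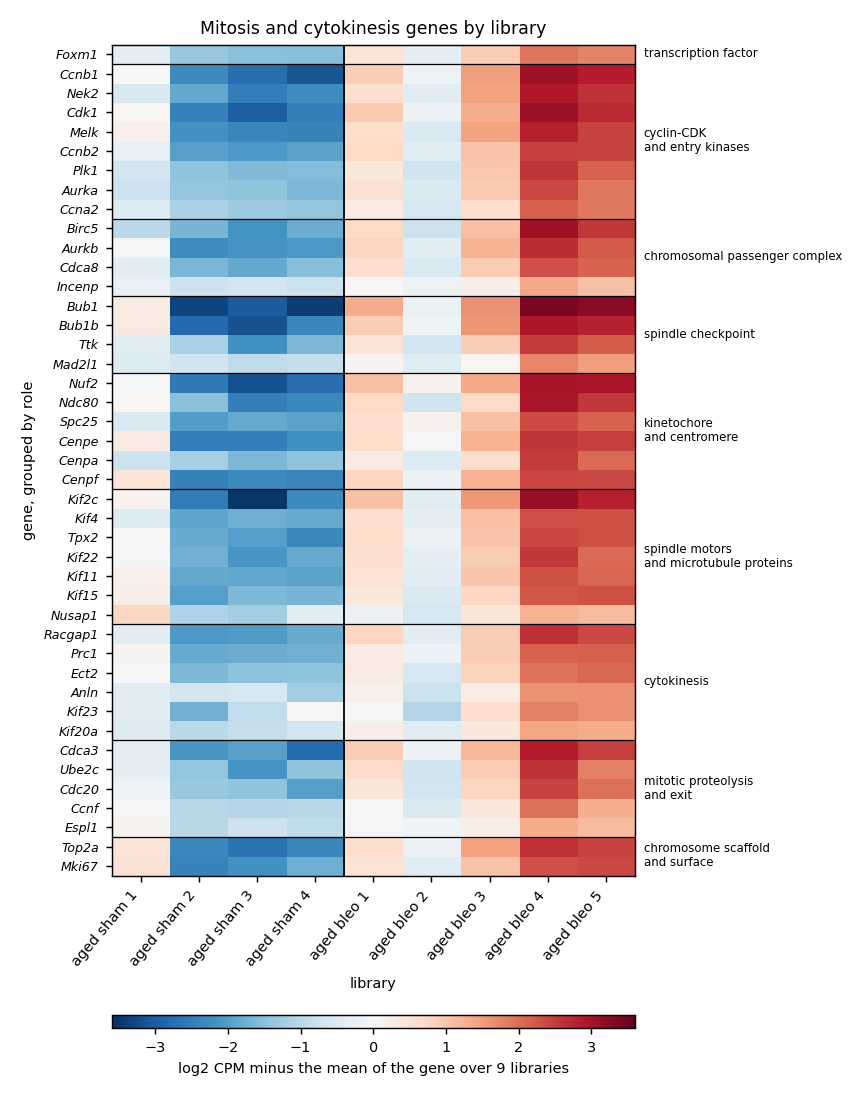
Expression of the 43 genes (rows, grouped by role and ordered within a role by fitted change) in each of the 9 libraries (columns), coloured by log2 CPM minus the mean of that gene over all libraries. Aged sham 2 to 4 were low in nearly every row, aged sham 1 lay near aged bleo 2, and aged bleo 4 and 5 were the highest.

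The promoters of these genes share letters that the choice of members did not use. RefSeq windows of 300 bases (GRCm38.p6, from 250 bases before to 50 after the annotated start) were matched by symbol for 37 of the 43 genes, with 39 windows in all since *Prc1* and *Ect2* have 2 each. Windows were not found for *Foxm1*, *Ccna2*, *Kif20a*, *Incenp*, *Aurkb*, and *Tpx2*. The CHR was searched as TTTGAA or TTTAAA and the CCAAT box as CCAAT, both on either strand, and an E2F motif on either strand in 4 forms, namely TTCCCGC with its variant TTCGCGC as well as the form TTGCCGC with its variant TTGGCGC. Motifs may overlap and were counted separately. A CHR stood in 84.62% of the 39 windows, against 27.59% of 32851 windows of all genes. A CCAAT box was present in 76.92% of the members' windows and 37.41% of all windows, and 71.79% of the members' windows held both letters, against 10.73% of all. E2F letters were found in 15.38% of the members' windows and 9.57% of all. The windows were not matched for base composition, and a match is a description of the letters, not a site of binding.

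The promoters below are those of the 6 most abundant members by mean CPM whose windows hold a CHR and a CCAAT box, printed because they show the arrangement shared by most of the genes that rose together. *Nusap1* is added, chosen after its values were seen, because it did not pass the test and has neither motif. Each is given from 5′ to 3′ on the strand of the gene, from 250 bases before the start through the first 30 transcribed bases, with CHR and CCAAT letters of either orientation in capitals.
Mki67, chr7:135716350-135716629, minus strand: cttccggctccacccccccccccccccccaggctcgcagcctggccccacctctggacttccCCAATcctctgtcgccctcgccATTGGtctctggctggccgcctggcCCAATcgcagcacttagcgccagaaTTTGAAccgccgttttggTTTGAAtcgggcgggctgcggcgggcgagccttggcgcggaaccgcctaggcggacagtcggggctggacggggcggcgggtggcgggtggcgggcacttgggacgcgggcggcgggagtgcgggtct
Top2a, chr11:99024160-99024439, minus strand: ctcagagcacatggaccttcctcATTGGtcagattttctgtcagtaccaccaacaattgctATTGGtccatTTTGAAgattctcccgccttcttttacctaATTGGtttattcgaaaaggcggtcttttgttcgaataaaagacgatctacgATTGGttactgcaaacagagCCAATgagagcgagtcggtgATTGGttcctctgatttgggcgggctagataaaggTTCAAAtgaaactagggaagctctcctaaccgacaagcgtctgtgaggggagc
Racgap1, chr15:99651627-99651906, minus strand: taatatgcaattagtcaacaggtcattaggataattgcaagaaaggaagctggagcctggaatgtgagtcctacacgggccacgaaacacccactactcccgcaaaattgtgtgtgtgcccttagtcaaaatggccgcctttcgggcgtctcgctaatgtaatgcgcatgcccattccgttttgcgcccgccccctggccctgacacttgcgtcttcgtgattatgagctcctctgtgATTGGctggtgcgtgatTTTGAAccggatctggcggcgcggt
Prc1, chr7:80294226-80294505, plus strand: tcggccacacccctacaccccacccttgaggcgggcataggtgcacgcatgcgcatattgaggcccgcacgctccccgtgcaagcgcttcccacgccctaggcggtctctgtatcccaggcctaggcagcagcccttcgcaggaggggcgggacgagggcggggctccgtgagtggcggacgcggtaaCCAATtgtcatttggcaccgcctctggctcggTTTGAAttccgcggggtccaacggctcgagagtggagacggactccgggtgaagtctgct
Cenpa, chr5:30666636-30666915, plus strand: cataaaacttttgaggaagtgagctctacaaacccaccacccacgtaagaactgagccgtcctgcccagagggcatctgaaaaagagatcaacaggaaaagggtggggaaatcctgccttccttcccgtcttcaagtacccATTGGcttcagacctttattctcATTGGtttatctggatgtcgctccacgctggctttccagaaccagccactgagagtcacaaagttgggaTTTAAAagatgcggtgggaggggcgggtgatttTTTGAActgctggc
Ccnb2, chr9:70421525-70421804, minus strand: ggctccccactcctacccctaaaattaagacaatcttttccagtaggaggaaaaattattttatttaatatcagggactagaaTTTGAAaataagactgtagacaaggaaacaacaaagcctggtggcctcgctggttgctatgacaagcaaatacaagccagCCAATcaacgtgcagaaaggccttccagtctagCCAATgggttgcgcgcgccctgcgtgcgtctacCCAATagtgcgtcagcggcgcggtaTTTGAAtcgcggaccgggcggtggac
Nusap1, chr2:119618048-119618327, plus strand: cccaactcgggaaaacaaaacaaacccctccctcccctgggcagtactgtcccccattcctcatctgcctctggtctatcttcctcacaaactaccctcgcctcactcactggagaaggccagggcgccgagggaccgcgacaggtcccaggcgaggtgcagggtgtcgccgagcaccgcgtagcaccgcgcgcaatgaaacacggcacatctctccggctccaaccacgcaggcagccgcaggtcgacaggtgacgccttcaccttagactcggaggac
In 24 of the 26 members with both motifs, the CHR nearest the 3′ end of the window lay after the last CCAAT box, by 9 to 153 bases (median 34.5). The exceptions were *Cdc20* and *Cdca8*. The median position of a CHR was 17 bases before the start and that of a CCAAT box 67 bases before it. This order and these positions were not counted over the windows of all genes. Pairs of CCAAT boxes 31 to 34 bases apart, counted from start to start, stood in 23.08% of the members' windows and in 1.2% of all windows; they were those of *Aurka*, *Ccnb1*, *Ccnb2*, *Cdca3*, *Cdca8*, *Cdk1*, *Nek2*, *Spc25*, and *Ube2c*. That spacing was chosen while these windows were being searched.

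The same letters were sorted differently over related gene lists. Among 45 windows of DNA replication and S phase genes, a CHR stood in 28.89%, near the share over all genes, and an E2F motif in 62.22%. The 68 windows of further mitosis genes held a CHR in 55.88% of cases, and the 35 windows of the constitutive mitotic machinery, which serves dividing and resting cells alike, in 17.14%. Within the 43 genes the letters did not sort the size of the change. The 31 members with a CHR had a median log2 fold change of 2.65 (1.21 to 3.50), and the 6 with a window but no CHR had a median of 3.22 and ran from 0.85 to 3.71. The latter were *Bub1*, *Mad2l1*, *Melk*, *Nek2*, *Nuf2*, and *Nusap1*, so the gene with the largest and the gene with the smallest fitted change both lacked a CHR in this window. *Bub1* did hold 2 CCAAT boxes, and *Nusap1* held none.

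**Figure D2:**
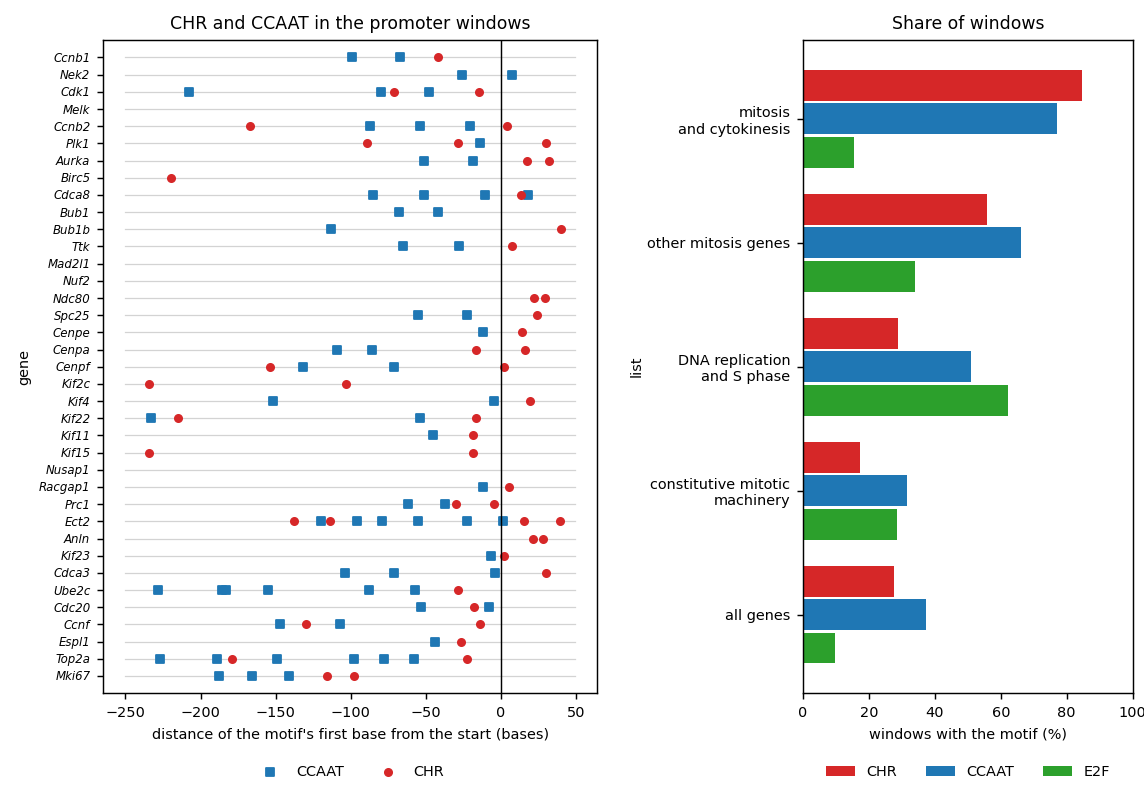
Left, position of the first base of each CHR (red circles) and CCAAT box (blue squares) relative to the annotated start, in bases, for the 37 genes with a promoter window (rows; for *Prc1* and *Ect2* both windows are drawn). Right, percentage of windows that hold each motif in 4 gene lists and in all genes, where the CHR falls from 84.62% of the mitosis and cytokinesis windows to 27.59% of all windows.

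Regulators of entry into mitosis rose together. *Foxm1*, the forkhead factor that activates many late cycle genes, had 7.91, 3.90, 3.54, and 3.53 CPM in aged sham 1 to 4 and 14.3, 8.05, 18.9, 38.5, and 34.9 CPM in aged bleo 1 to 5. The groups did not overlap, though aged sham 1 and aged bleo 2 differed by little, and the log2 fold change was 2.28 ± 0.49 SE (FDR = 0.00787). *Cdk1*, the kinase that drives mitosis, had 3.46, 0.616, 0.428, and 0.605 CPM in aged sham and 6.34, 2.86, 8.18, 28.4, and 21.2 CPM in aged bleo, a log2 fold change of 3.38 ± 0.88 (FDR = 0.017). Here aged sham 1 was above aged bleo 2 and the groups overlapped, as for 5 other genes of the 8 in this role. Of its cyclin partners, cyclin B1 (*Ccnb1*) changed most. Its levels were 2.5, 0.513, 0.389, and 0.303 CPM in aged sham and 4.69, 2.22, 7.19, 21.1, and 18.0 CPM in aged bleo (log2 fold change 3.50 ± 0.88, FDR = 0.015). Cyclin A2 (*Ccna2*), which acts earlier, from S phase on, had the smallest change of the role at 2.26 ± 0.55 (FDR = 0.0134), with 9.95, 6.19, 5.55, and 5.18 CPM in aged sham and 17.0, 9.15, 21.7, 61.2, and 52.0 CPM in aged bleo. *Plk1*, the polo-like kinase of mitotic entry and exit, went from 2.12, 1.25, 1.13, and 1.17 CPM to 4.41, 2.06, 6.71, 20.3, and 14.8 CPM (2.76 ± 0.64, FDR = 0.0108), where aged bleo 2 was just under aged sham 1. *Aurka*, *Nek2*, *Ccnb2*, and *Melk* also passed, with log2 fold changes from 2.64 to 3.46.

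The chromosomal passenger complex corrects faulty attachments of chromosomes to the spindle and later directs cytokinesis. Its 4 measured subunits all rose, but by unlike amounts. *Birc5*, which encodes survivin, had 1.63, 0.992, 0.721, and 0.928 CPM in aged sham and 5.21, 1.87, 6.72, 26.2, and 18.6 CPM in aged bleo, without overlap (log2 fold change 3.45 ± 0.75, FDR = 0.00823). *Aurkb*, the kinase subunit, had 1.73, 0.376, 0.409, and 0.424 CPM against 3.05, 1.33, 4.24, 11.3, and 8.22 CPM (2.92 ± 0.73, FDR = 0.0148), and here aged sham 1 exceeded aged bleo 2. *Incenp*, the scaffold that activates the kinase, already had 8.59, 5.94, 6.35, and 5.99 CPM in aged sham and 10.3, 8.90, 12.0, 26.0, and 21.3 CPM in aged bleo. Its change of 1.22 ± 0.33 (FDR = 0.0198) was the smallest of the complex, and its groups did not overlap. The fourth subunit, borealin (*Cdca8*), changed by 2.65 ± 0.61 (FDR = 0.0106).

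The spindle checkpoint delays anaphase until every chromosome is attached. All 4 of its genes passed, and the largest fitted change of the 43 genes was among them. *Bub1*, a checkpoint kinase, had 2.15, 0.171, 0.214, and 0.161 CPM in aged sham and 4.33, 1.46, 5.32, 17.7, and 16.1 CPM in aged bleo (log2 fold change 3.71 ± 1.05, FDR = 0.0234). Aged sham 1 had 12.6 times the median of the other aged sham libraries and exceeded aged bleo 2. Without aged sham 1 the *Bub1* value was 5.61, and without aged sham 2 it was 3.39, just below that of *Birc5* (3.41). *Mad2l1*, which encodes the inhibitor MAD2, differed by less, with 5.80, 4.93, 4.34, and 4.54 CPM in aged sham and 8.72, 6.06, 8.52, 27.5, and 23.4 CPM in aged bleo (1.60 ± 0.46, FDR = 0.0246). Its groups did not overlap, although aged bleo 2 was only slightly above aged sham 1. *Bub1b* and *Ttk* lay between them at 3.22 and 2.70.

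Kinetochore and centromere genes, whose proteins tie each chromosome to spindle fibres, changed by similar amounts. All 6 passed, with log2 fold changes from 2.61 (*Cenpf*) to 3.58 (*Nuf2*). *Nuf2*, a subunit of the NDC80 complex that grips microtubules, had 2.33, 0.411, 0.273, and 0.363 CPM in aged sham and 4.97, 2.68, 6.26, 18.9, and 18.5 CPM in aged bleo (± 0.86 SE, FDR = 0.0126), with no overlap. Of the other subunits of that complex, *Ndc80* and *Spc25* rose by 2.94 and 2.93, and *Spc24*, which is not one of the 43 genes, by 3.81 ± 0.78 (FDR = 0.00651). *Cenpf*, a large protein of the outer kinetochore, had 5.90, 0.770, 0.857, and 0.807 CPM against 7.09, 3.57, 9.88, 22.1, and 21.4 CPM (± 0.81, FDR = 0.0335). Aged sham 1 stood far above the other 3 sham libraries there, close to aged bleo 1. *Cenpa*, the histone H3 variant that marks centromeres, rose by 2.65 and *Cenpe*, a kinetochore motor, by 2.82.

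Among motors and microtubule proteins of the spindle, 6 of 7 passed. *Kif2c*, a kinesin that takes microtubules apart, changed most. It had 1.92, 0.308, 0.156, and 0.363 CPM in aged sham and 3.68, 1.35, 5.21, 15.4, and 12.3 CPM in aged bleo (log2 fold change 3.44 ± 0.92, FDR = 0.019). *Kif11*, the motor that separates the spindle poles, rose by 2.44, and *Tpx2*, which helps microtubules form near chromosomes, by 2.75. *Nusap1*, a protein that bundles spindle microtubules, was the member that did not pass. It had 9.51, 2.67, 2.41, and 4.42 CPM in aged sham and 4.99, 3.66, 7.77, 13.7, and 12.7 CPM in aged bleo (0.85 ± 0.51, FDR = 0.226). The groups overlapped widely, since aged sham 1 was above 3 of the 5 aged bleo libraries. Without aged sham 1 the value was 1.43 and passed.

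**Figure D3:**
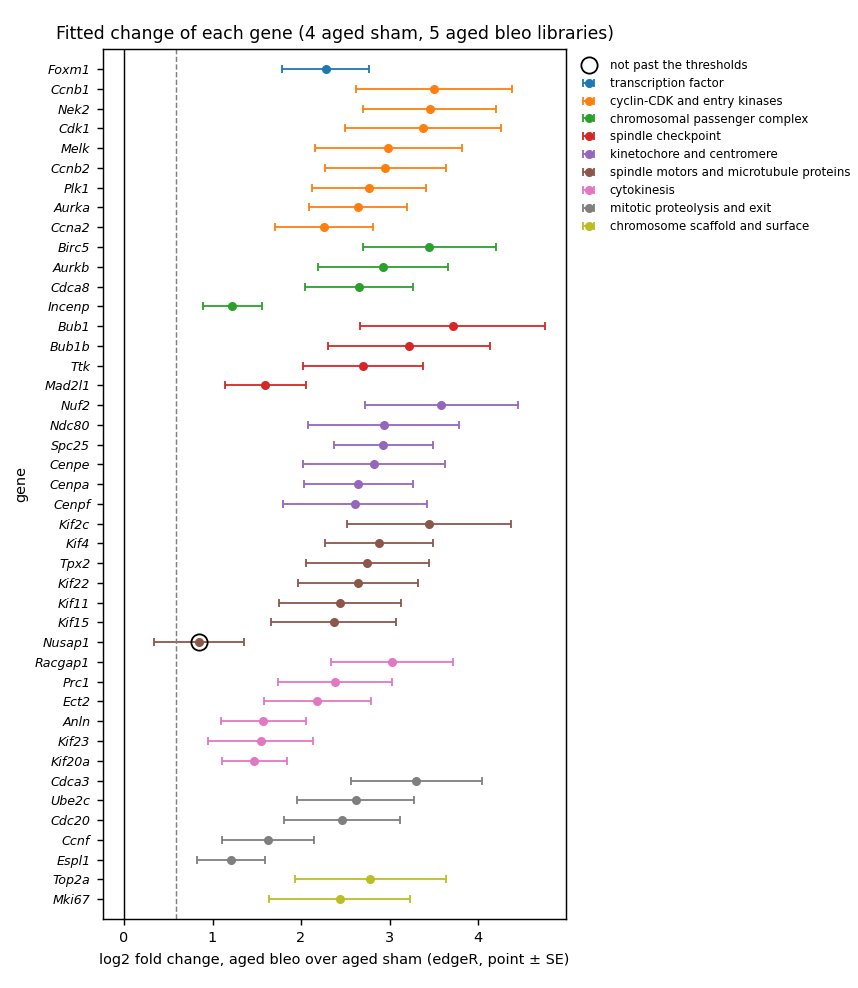
Log2 fold change of aged bleo over aged sham for each of the 43 genes (points, coloured by role) with its standard error (bars), from edgeR on 4 and 5 libraries. The dashed line marks a 1.5-fold change, all points lie to its right, and the circled gene, *Nusap1* at 0.85, was past the fold threshold but not the FDR threshold.

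Genes of cytokinesis, the division of the cell body, all passed, with a lower median change (1.88) than any other role. *Racgap1*, a subunit of the centralspindlin complex that sets the cleavage plane, led with 5.93, 1.83, 1.89, and 2.18 CPM in aged sham and 13.2, 5.81, 14.6, 47.9, and 39.7 CPM in aged bleo (log2 fold change 3.03 ± 0.69, FDR = 0.00987). Its partner in that complex, *Kif23*, rose by 1.54 ± 0.59 and had the weakest call of the set (FDR = 0.0694). It had 4.81, 1.92, 3.43, and 6.55 CPM in aged sham and 6.01, 3.07, 9.54, 22.4, and 19.8 CPM in aged bleo, so that aged sham 4, not aged sham 1, was the highest sham library. The call was lost without any of aged sham 1, 2, or 3 or aged bleo 4 or 5 (log2 fold changes from 1.19 to 1.62). *Kif20a*, a motor of the central spindle, had 12.4, 8.64, 9.60, and 10.4 CPM against 19.9, 12.5, 22.1, 45.0, and 42.8 CPM (1.47 ± 0.36, FDR = 0.0142). Of its annotated exonic bases, 29.3% are shared with *Cdc23* on the other strand, and the library kit does not mark strand, so reads of the shared bases cannot be told apart. The same holds to a smaller degree for *Ube2c* (22.77% shared with *Tnnc2*), *Kif4* (15.09% with *Pdzd11*), *Ccna2* (12.49% with *Exosc9*), and *Prc1* (11.08% with *Rccd1*). In GENCODE M21, from which these shares come, *Kif20a* and *Ccna2* have another span than in the deposited data, so their shares are approximate. *Anln*, which encodes the ring protein anillin, rose by 1.57, *Ect2*, which activates RhoA at the cleavage site, by 2.18, and *Prc1*, a bundler of the central spindle, by 2.38.

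All 5 genes of mitotic proteolysis and exit passed. *Cdca3*, a factor that directs the destruction of WEE1, had 1.71, 0.513, 0.565, and 0.323 CPM in aged sham and 4.07, 1.90, 4.99, 15.6, and 12.2 CPM in aged bleo, with no overlap (log2 fold change 3.30 ± 0.74, FDR = 0.00922). *Espl1*, which encodes separase, the protease that opens cohesin rings at anaphase, changed least. It had 5.15, 2.38, 2.84, and 2.54 CPM against 4.58, 4.39, 5.66, 12.1, and 10.6 CPM (1.21 ± 0.38, FDR = 0.037), where aged sham 1 was above both aged bleo 1 and 2. *Cdc20* and *Ube2c*, an activator and an E2 enzyme of the anaphase-promoting complex, rose by 2.46 and 2.62. *Ccnf* rose by 1.63. The chromosome proteins *Top2a* and *Mki67*, the source of the Ki-67 proliferation marker, had the highest mean CPM over all libraries, while in aged sham the means of *Anln* (11.9 CPM) and *Kif20a* (10.3 CPM) were above theirs. *Top2a* had 19.9, 2.87, 2.28, and 2.84 CPM in aged sham and 22.4, 12.4, 39.5, 88.5, and 78.3 CPM in aged bleo (2.78 ± 0.85, FDR = 0.0316). *Mki67* had 24.0, 3.17, 3.70, and 4.92 CPM against 23.7, 12.7, 34.4, 84.0, and 88.0 CPM (2.44 ± 0.80, FDR = 0.0412). In both genes aged sham 1 was near the level of aged bleo 1, while the other 3 sham libraries were below every aged bleo library. The *Mki67* call was lost without aged sham 3 (2.20) or aged sham 4 (2.23).

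The members moved up and down across libraries as a block. Summed over the 43 genes, aged sham 1 had 224 CPM and aged sham 2 to 4 had 85.9, 84.5, and 88.3 CPM. The sums in aged bleo 1 to 5 were 325, 178, 434, 1137, and 1001 CPM. Aged bleo 2 was therefore below aged sham 1, and aged bleo 4 and 5 were more than 2 times above the next library. Aged bleo 2 was the lowest aged bleo library in 43 of 43 genes (26.4% of all genes tested), and aged bleo 4 or 5 the highest in 43 of 43 (46.6%). The full order of aged bleo 2, then 1, then 3, then 4 and 5 in either order held in 41 members, against 6.63% of all genes, with *Mad2l1* and *Ndc80* as the exceptions. Aged sham 1 was the highest sham library in 42 of 43 genes (29.8% of all genes), *Kif23* being the exception. With aged sham 1 set aside, the aged bleo libraries were above the other aged sham libraries in 40 of 43 (19.9%). These patterns follow the order of the same genes' sums. The counts among the members are therefore a description, and the shares over all genes are no test of them.

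The spread within a group was correspondingly wide for these genes. The highest aged bleo library had a median of 7.29 times the level of the lowest over the 43 genes, against 1.49 times over all genes tested, and within aged sham the figures were 3.48 and 1.26. The excess of aged sham 1 over the median of the other sham libraries ranged from 1.20-fold (*Anln*) to 12.6-fold (*Bub1*), with a median of 3.17. Aged sham 1 also stood out in *Adam12*, a marker of activated fibroblasts that was picked out here after its values were seen, with 19.0 CPM against 1.69 to 4.07 in the other sham libraries and 24.2 to 117 in aged bleo. Over the 9 genes of the fibrotic fibroblast list, which includes *Adam12*, the median excess of aged sham 1 was only 1.44-fold. Long genes read slightly high in aged sham 1. The median log2 difference from the other sham libraries was 0.12 in the longest of 6 length classes of the tested genes and -0.08 in the shortest. The members' differences ran from 0.33 to 3.34, and across the 43 genes they correlated with log2 gene length at r = 0.40. In aged bleo 4, against the other aged bleo libraries, the longest class read -0.19 and the shortest 0.14. Across the 43 genes r was -0.39 there. Over the 9 libraries r ran from -0.47 (aged sham 2) to 0.40 (aged sham 1). The part of gene length in these levels was not tested. Without aged sham 1, 42 members passed, now with *Nusap1* and without *Kif23*, and the median was 3.34. The fitted fold change was then over 1.5 times its value with all libraries in 23 of the 43 genes, by at most 3.72 times (*Bub1*), and no other single library moved any of the 43 by that much. Without aged bleo 4 and 5, an alternative added after seeing the data, 32 passed, with a median of 1.62.

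The wider pathway was read from the same fit. Of 75 further mitosis genes tested, 53 were higher and none lower, with a median log2 fold change of 1.91. The largest change there was that of *Cdc25c*, a phosphatase that switches CDK1 on (3.95 ± 0.99, FDR = 0.015), and the smallest that of its relative *Cdc25b*, at -0.47 ± 0.12 (FDR = 0.0144), which missed the fold threshold. Of the 49 genes of DNA replication and S phase, 24 were higher and none lower, with a median of 0.73. They ran from *Cdc7*, a replication kinase, at -0.42 ± 0.19 (FDR = 0.117) to *Exo1*, a repair nuclease, at 2.91 ± 0.66 (FDR = 0.01). The list of constitutive machinery of mitosis included anaphase-promoting complex and cohesin subunits, gamma-tubulin complex, dynein, and phosphatases. Its genes were picked as serving dividing and resting cells alike, with earlier results of these data known. Its level is therefore a description and no test of the other lists. The list was near the background of 12.3%, with 3 of 36 genes higher, none lower, and a median of 0.01. The 3 were *Ube2s* (0.82 ± 0.22, FDR = 0.0177) and *Anapc15* (0.71 ± 0.22, FDR = 0.0327), which both serve the anaphase-promoting complex, and *Tubg1*, which encodes gamma-tubulin (0.63 ± 0.16, FDR = 0.0145). The smallest value was that of the cohesin subunit *Stag2*, at -0.30 ± 0.07 (FDR = 0.0112), which did not reach 1.5-fold.

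Of the 17 genes that encode the regulators of these promoters, 5 were higher and none lower. They were *Mybl2*, which encodes B-MYB (2.71 ± 0.65, FDR = 0.0121), *E2f8* (2.95 ± 0.68, FDR = 0.0106), *E2f7* (2.15 ± 0.65, FDR = 0.0301), *E2f3* (1.20 ± 0.14, FDR = 0.000341), and *Rbl1*, which encodes p107 (0.85 ± 0.23, FDR = 0.0184). *Rbl2*, which encodes p130, had the smallest value at -0.46 ± 0.10 (FDR = 0.00866) and did not reach the fold threshold. It had 89.4 to 97.6 CPM in aged sham and 56.7 to 78.9 CPM in aged bleo. The 7 CDK inhibitors were mixed, with a median log2 fold change of 0.04. *Cdkn2a*, *Cdkn2b*, and *Cdkn2c* of the INK4 family were higher (2.29, 1.54, and 1.99) and *Cdkn1c*, which encodes p57, was lower (-1.58 ± 0.28, FDR = 0.00359). The other 3, *Cdkn1a*, *Cdkn1b*, and *Cdkn2d*, were not called. Both Cdkn2a products are counted together here.

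**Figure D4:**
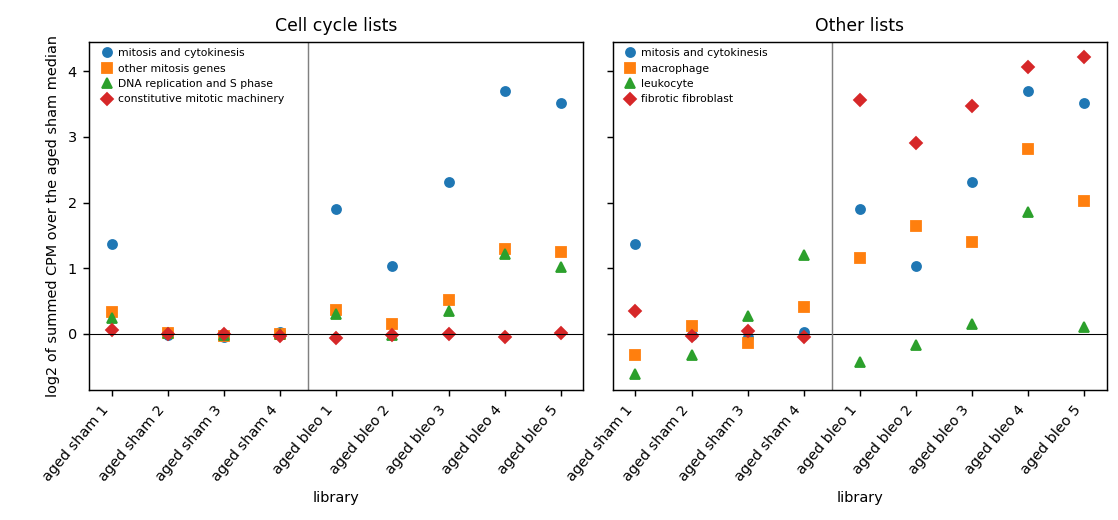
Log2 of the summed CPM of a gene list in each library over the median of the aged sham libraries, for cell cycle lists (left) and for the 43 genes beside lists of macrophage, leukocyte, and fibrotic fibroblast genes (right). The constitutive machinery stays near 0 in all 9 libraries, the 43 genes are raised in aged sham 1 and in every aged bleo library, and aged bleo 4 is the highest in the macrophage and leukocyte lists too.

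Transcripts of other cell types, which may also divide, were present despite the sort. Macrophage genes, of which *Lyz2* was the most abundant, summed to 205 to 341 CPM in aged sham and to 577, 802, 679, 1825, and 1044 CPM in aged bleo 1 to 5, and 7 of 14 tested were higher. The leukocyte list (2 of 12 higher) summed to 196 to 690 CPM in aged sham and 224 to 1084 in aged bleo, and *Ptprc*, which encodes the CD45 used to gate leukocytes out, was not called. Aged bleo 4 was the highest library in both lists as in the summed mitosis genes. Aged bleo 5 was the next highest in the macrophage list, as in the summed mitosis genes, and not in the leukocyte list. Aged bleo 2, the lowest aged bleo library in the mitosis genes, had more macrophage transcripts than aged bleo 1 and 3. Aged sham 1, the highest sham library in the mitosis genes, had the least of both lists. Without aged bleo 4, 41 of the 43 genes passed, with a median of 2.29. Without aged bleo 4 and 5 together, a choice made after seeing the data, 32 passed, with a median of 1.62.

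In the remaining marker lists, neutrophil genes (none of 10 higher or lower) summed to 275 to 1512 CPM in aged sham and 156 to 1392 in aged bleo, with aged bleo 4 the highest aged bleo library. T and NK cell genes (1 of 9 higher) reached at most 41.5 CPM in sum, in aged bleo 4, and the defining NK gene *Ncr1* was near 0 in every library. B and plasma cell genes (1 higher and 5 lower of 9) summed to 112 to 452 and 31.5 to 339 CPM, with *Pax5* near 0. Endothelial genes (3 higher and 1 lower of 11) summed to 268 to 315 and 112 to 168 CPM, epithelial genes (1 higher and 3 lower of 14) to 24.9 to 132 and 29.2 to 75.8 CPM, and *Epcam* itself was not called. Mesothelial genes (1 lower of 8) summed to 61.4 to 115 and 41.2 to 142 CPM, and erythroid genes (none of 4) to at most 16.4 CPM. Smooth muscle and pericyte genes (2 higher and 4 lower of 13) summed to 4345 to 7817 and 3154 to 4987 CPM. Fibrotic fibroblast genes, led by *Spp1*, were higher in 8 of 9 and lower in 1, and summed to 514 to 673 CPM in aged sham and 6248, 3990, 5884, 8917, and 9837 CPM in aged bleo 1 to 5, so that aged bleo 2 was the lowest of its group and aged bleo 4 and 5 the highest there too, and aged sham 1 was the highest sham library. The part of any of these cell types in the levels of the 43 genes was not tested.

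Per length, in the deposited FPKM values, the members were low transcripts throughout. In aged bleo the highest group means were those of *Ccnb2* (4.37 ± 3.27 FPKM, SD, n = 5), *Ccna2* (4.00 ± 2.94), and *Cdc20* (3.43 ± 2.70), and the lowest were those of *Cenpf* (0.361 ± 0.246) and *Ttk* (0.374 ± 0.300). The order in aged sham was not the same. There *Kif20a* (1.13 ± 0.167 FPKM, SD, n = 4), *Mad2l1* (0.933 ± 0.124), *Anln* (0.919 ± 0.219), and *Incenp* (0.876 ± 0.164) led. These 4 were also among the members with the smallest fitted changes, with log2 fold changes from 1.22 to 1.60. The sham level enters both values. Of the genes named, neighbours in either order differed by less than their SDs, except *Kif20a* and *Mad2l1* in aged sham.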

How the data were processed

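The data were RNA-Seq libraries of sorted Col1a1-GFP lung fibroblasts (n = 4 for aged sham and 5 for aged bleo). For 43346 genes the authors deposited raw, whole-number counts and FPKM values, the latter scaled to gene length and library size. The submitters' processing notes name STAR 2.5.2b, featureCounts, and mm10 (GRCm38), and give no strand setting.

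The members and lists were chosen with earlier results of these data known. The 16877 genes averaging 25 counts or more were TMM-normalized and compared in edgeR 4.0.16 (glmQLFit and glmQLFTest, R 4.3.3) with no covariate. Calls needed an FDR (Benjamini-Hochberg) below 0.10 together with a change above 1.5-fold. The SE was derived from each fold change and its F statistic. Levels are TMM-scaled CPM, a prior count of 2 was added on the log2 scale, and list levels are sums of CPM. At this depth 3 counts equal 0.0409 to 0.0605 CPM.

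Per-library values are given for *Foxm1*, *Birc5*, *Aurkb*, *Plk1*, and *Cdk1*, for the genes with the largest and smallest fitted change in each role, and for genes that did not pass; *Kif23* and, outside the 43 genes, *Spc24* were added after their values were seen. Of the other lists, the extremes are named, and where 5 or fewer passed, those genes too, after their values were seen. Alternatives were DESeq2 1.42.0, limma 3.58.1 on log2 CPM and on log2 FPKM with a pseudocount of 0.1 or 1, further normalizations and filters, stricter thresholds, leaving out libraries, and replicate numbers as a block. Exon overlaps come from GENCODE M21, which gives 78.89% of 42462 shared identifiers the same span. The test was tried on simulated counts of 16877 genes, of which 200 were changed. There edgeR recovered 72% of 2-fold and 92% of 4-fold changes, with 12 false among 176 calls. Limma on log2 CPM made 12 false among 177 calls. DESeq2 recovered 82% and 94%, with 55 false among 231 calls, above the FDR threshold of 0.10.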

Additional observations from a re-analysis of the deposited data

Results flagged for a closer look

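Aged sham 1 lay far above the other aged sham libraries on the log2 CPM scale in 19 of the 43 mitosis and cytokinesis genes, by a gap over the group's range larger than Dixon's 95% critical value for 4 samples. The genes and their levels in aged sham 1 were *Foxm1* (7.91 CPM), *Cdk1* (3.46 CPM), *Ccnb2* (4.12 CPM), *Plk1* (2.12 CPM), *Melk* (1.58 CPM), *Aurkb* (1.73 CPM), *Bub1* (2.15 CPM), *Cenpe* (5.43 CPM), *Cenpf* (5.9 CPM), *Spc25* (1.78 CPM), *Kif11* (4.39 CPM), *Kif15* (2.99 CPM), *Kif22* (2.86 CPM), *Kif4* (2.2 CPM), *Prc1* (8.48 CPM), *Ect2* (3.91 CPM), *Racgap1* (5.93 CPM), *Ccnf* (1.42 CPM), and *Top2a* (19.9 CPM). The mean log2 CPM over the 43 genes in that library, 1.95, was apart from the others by the same measure, against 0.36, 0.23, and 0.34 in aged sham 2 to 4. Chance marks about 1 in 20 groups by this measure, and the genes are not independent of each other. Over all 16877 genes tested, aged sham 1 was apart on the high side in 1.51%, and any of the 4 sham libraries in 5.41%. In aged bleo, with the critical value for 5 samples, no library was apart in any of the 43 genes, against 5.57% of all genes tested.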

How the results depend on the processing

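The number of mitosis and cytokinesis genes called higher was 42 with DESeq2, RLE normalization, library size only, no filter, and a robust fit, 41 with stricter thresholds (FDR under 0.05, over 2-fold), limma on log2 CPM, and limma on log2(FPKM + 0.1), 40 of 41 tested with at least 10 counts in every library, and 43 without aged sham 1 and aged bleo 2. With limma on log2(FPKM + 1) it was 35 and the median log2 fold change 0.77, where the pseudocount exceeds most of the levels. Leaving out each library gave 40 to 42 genes and a median of 2.29 to 3.34. None was called lower in any of these.

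The count of all genes called was 4022, and 2158 under stricter thresholds, 1785 with limma on log2(FPKM + 1), and 3525 to 4597 with each library left out. With log2(FPKM + 1), the genes called higher were 18 of the further mitosis list, 9 of the S phase list, 1 of the pocket protein, MuvB, MYB, and E2F list, and 1 of the constitutive machinery. The last was 0 under stricter thresholds and 1 to 3 with each library left out, the 1 being without aged bleo 4. Without aged bleo 4 and 5, chosen after seeing the data, these counts were 35, 12, 3, and 0, and 1 gene each of the further mitosis and S phase lists was called lower. The causes were not tested.

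With replicate numbers as a block, 38 of the 43 genes, 3536 genes in all, and 1 of the constitutive machinery were called higher or changed, and *Ndc80*, *Anln*, *Ccnf*, and *Espl1* were lost. The labels do not say whether the numbers pair the libraries. Deviations of libraries with the same number correlated at 0.09, 0.06, -0.13, and 0.33, and those with unlike numbers at -0.21 to 0.25. So few correlations cannot exclude a pairing. Restricting the promoter windows to the 150 bases nearest their end gave 79.49% with a CHR and 69.23% with a CCAAT box, against 12.84% and 23.38% of all windows of that length. Depth limits the sham side most, where members had as few as 8 counts.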
